A study of Homo sapiens with 16 samples.

Results

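The genes for MYC, its dimerisation partner MAX and 8 relatives of the same network were examined for binding of the clock factor BMAL1 and for precipitation with an antibody to Myc in U2OS, a human osteosarcoma line. The 10 genes were MYC, MAX, MXD1, MXD3, MXD4, MXI1, MNT, MLX, MLXIP and MGA, out of 20037 protein-coding genes. No peak value entered the rule that named them, but they were chosen with earlier results of these data known. Every peak that lay in the gene body or within 5 kb of either end was taken, on the build hg38. This gave 108 peaks, of which 104 were among the 56099 BMAL1 peaks and 4 were among the 2487 Myc peaks.

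BMAL1 chromatin had been precipitated at 6 time points, labelled 0, 4, 8, 12, 16 and 20 h, from a line named U2OS-CHRONO and from U2OS cells labelled WT. The labels do not describe how the U2OS-CHRONO line was made; CIART encodes CHRONO, a protein that represses transcription by BMAL1 and CLOCK. The BMAL1 cultures of both lines had received 200 nM dexamethasone, which aligns the clocks of cultured cells, and were collected at intervals of 4 h that began 4 h ahead of the lowest point of a luciferase reporter driven by the BMAL1 promoter. A single library from U2OS-CHRONO was precipitated with the Myc antibody. It has no time or treatment label, and the series design calls its target Myc-CHRONO. The labels do not settle which protein was precipitated, so a Myc peak below is not read as binding of MYC itself. Each line and time had 1 library, so the 6 shared times were used as pairs and not as replicates. Every p-value below measures only how far the lines differ over these times, and read depth is unknown.

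MYC is a basic helix-loop-helix leucine zipper factor that binds DNA as a dimer with MAX, at sites known as E-boxes with the core CACGTG. MXD1, MXD3, MXD4, MXI1, MNT and MGA also pair with MAX and are known mainly as repressors that occupy the same kind of site. MLX is a parallel partner that pairs with MLXIP (MondoA), a factor that responds to glucose, and BMAL1 with CLOCK binds E-boxes of the same core.

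The BMAL1 lists of U2OS-CHRONO held 5612, 8240, 2429, 3919, 9391 and 6873 peaks at 0, 4, 8, 12, 16 and 20 h, and those of U2OS held 3397, 5287, 337, 1808, 2794 and 6012. The U2OS-CHRONO list was the longer at every time. Because list length can set whether a weak peak is listed at all, the comparisons of the lines at each of the 10 genes are also given with the same number of top-scoring peaks taken from both lines at each time, called equal list sizes below. Peak strength is given as a rank by the authors' score within a list, or as that rank in percent of the list, where a low percent is a strong peak. Equal list sizes shortened the U2OS-CHRONO lists alone, so U2OS values stayed as they were. A U2OS-CHRONO peak could then only drop out or take a weaker place in percent. For scale, the best peak of NR1D1, a canonical clock target, had rank 1 to 4 in every BMAL1 list and rank 2 in the Myc list.

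BMAL1 peaks were found at 8 of the 10 genes, where 41.5% of all protein-coding genes had a peak in at least 1 BMAL1 library. MYC itself and MLXIP had none, and the other 8 were MAX, MXD1, MXD3, MXD4, MXI1, MNT, MLX and MGA. In U2OS-CHRONO, 7, 6, 2, 6, 7 and 7 of the 10 genes had a peak at 0, 4, 8, 12, 16 and 20 h. The shares of all protein-coding genes in the same lists were 18.4%, 23.0%, 7.96%, 11.5%, 24.7% and 19.3%. In U2OS, 5, 7, 0, 3, 3 and 6 of the 10 genes had a peak at these times, against 11.2%, 15.7%, 1.30%, 5.88%, 9.34% and 16.2% of all genes. The share of network genes was therefore above that of all genes in 11 of the 12 libraries, and U2OS at 8 h, the shortest list, was the exception. Since the genes were chosen with earlier results of these data known, this excess is a description and was not tested. The mean number was 5.83 ± 1.94 genes in U2OS-CHRONO and 4.0 ± 2.53 in U2OS (SD over 6 times each), so the ranges of the lines overlap. In lists of equal size the mean was 4.33 genes in U2OS-CHRONO and 4.0 in U2OS, whose lists were not shortened. The share of all genes in lists of equal size is not given. Gene length was similar, with a median of 22412.5 bp for the 10 genes and 24115 bp for all. The number of genes reached at any time was 7 in U2OS-CHRONO, where 36.1% of all genes were reached, and also 7 in U2OS, where 26.0% were. Peaks in 10 or more of the 12 BMAL1 libraries were found at MGA and MNT, against 4.06% of all genes, and none of the 10 had a peak in all 12, against 0.804%.

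**Figure D1:**
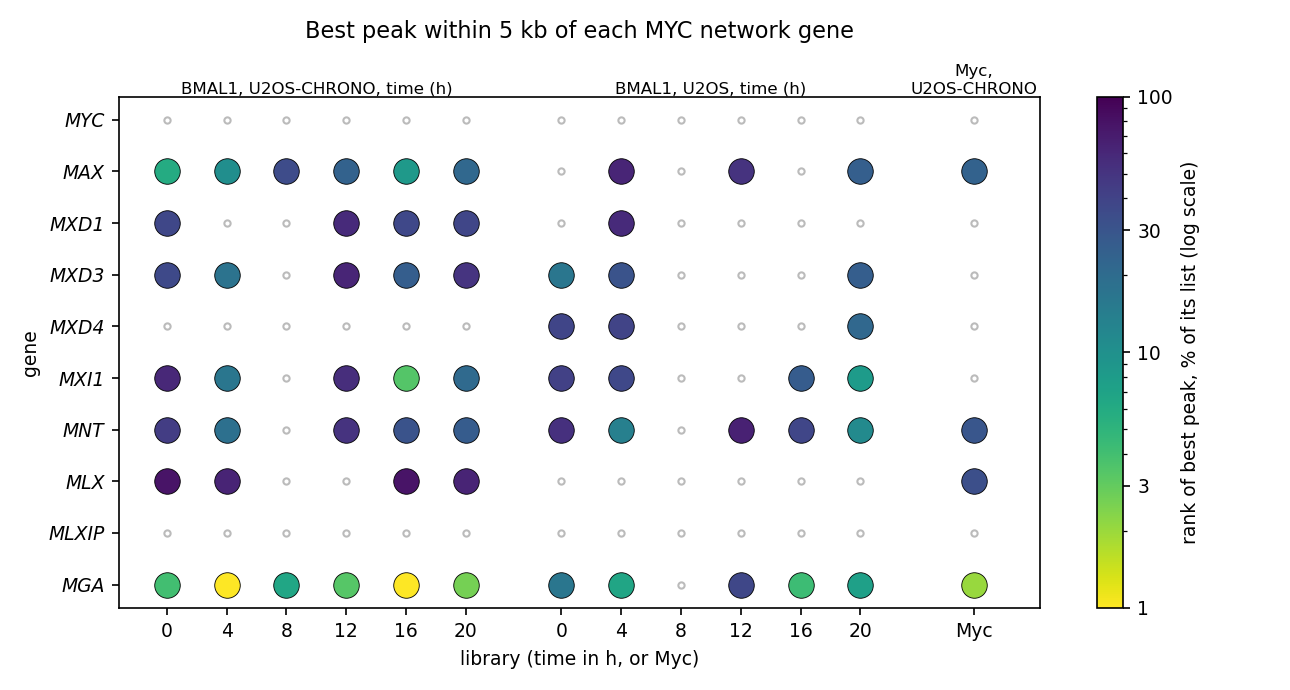
Best peak of each of the 10 genes (rows) in each library (columns: BMAL1 in U2OS-CHRONO, BMAL1 in U2OS, Myc in U2OS-CHRONO). Colour gives the rank of the best peak within 5 kb in percent of its list on a log scale, and small open circles mark no peak; MGA held the strongest peaks, 1.01% at 4 h and at 16 h in U2OS-CHRONO, and the rows of MYC and MLXIP are empty.

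**Figure D2:**
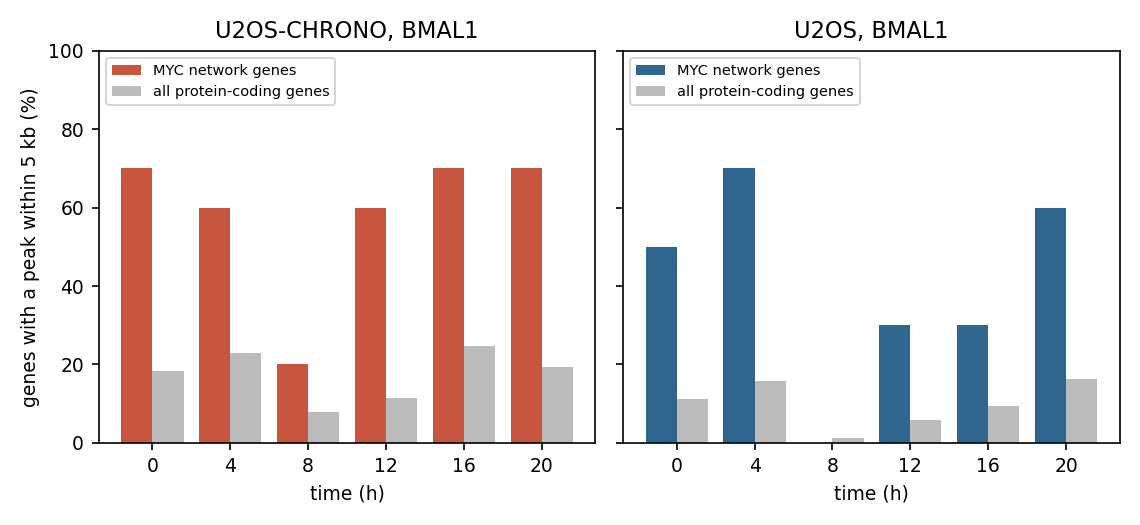
Share of genes with a BMAL1 peak within 5 kb at each time, for the 10 network genes (coloured bars) and all 20037 protein-coding genes (grey bars), in U2OS-CHRONO (left) and U2OS (right). The coloured bar is the taller in every library but U2OS at 8 h, where 0 of the 10 genes and 1.30% of all genes had a peak.

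No list held a peak within 5 kb of MYC. The nearest BMAL1 peak of any list lay 12.8 kb beyond the gene's end, in U2OS at 20 h. In the other lists the nearest one lay 49.7 kb away or farther, and the nearest Myc peak lay 66.5 kb before the gene's start. MLXIP likewise had no peak in its window, and its nearest BMAL1 peak lay 14.4 kb before the gene, in U2OS-CHRONO at 16 h. These genes were thus at 0 in both lines and in the Myc library, and the lists do not say whether weaker binding lay below the callers' threshold. MAX, the obligate partner of MYC, was by contrast listed in 9 BMAL1 libraries.

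At MAX, a region at the gene's 5' end (chr14:65102282-65103608) held BMAL1 peaks at all 6 times in U2OS-CHRONO and at 3 times in U2OS. The region runs upstream from the annotated start at 65102283 on the minus strand. In U2OS-CHRONO its best peak had the ranks 337, 867, 853, 932, 788 and 1463 at 0, 4, 8, 12, 16 and 20 h, or 6.00%, 10.5%, 35.1%, 23.8%, 8.39% and 21.3% of the lists. In U2OS it had the ranks 3286, 928 and 1510 at 4, 12 and 20 h, or 62.2%, 51.3% and 25.1%, with no peak at 0, 8 and 16 h. The peak stood higher in the U2OS-CHRONO list at 6 of 6 times, although 35.1% in U2OS-CHRONO at 8 h was a weaker place than 25.1% in U2OS at 20 h. The mean percentile (100 for the strongest peak of a list, 0 for no peak) was 82.5 in U2OS-CHRONO and 26.9 in U2OS, a difference of 55.6 ± 35.6 points (SD, n = 6 times; two-sided exact paired permutation p = 0.03125, no smaller p being possible with 6 pairs; Benjamini-Hochberg adjusted p = 0.444 over 8307 genes). With equal list sizes the peak stood higher in U2OS-CHRONO at 4 times and lower at 1, at 12 h with 51.5% against 51.3%. The percentile difference was then smaller, at 34.7 points (exact paired p = 0.125). The Myc library also had a peak here, chr14:65102421-65102671, with rank 599 of 2487 (24.1%), and it overlapped the BMAL1 peaks of all 6 U2OS-CHRONO times and of 3 U2OS times. The other 3 regions of the MAX window each held a single peak of a single U2OS-CHRONO library, between 57.6% and 82.8% of the list, and 2 of them lie within 5 kb of the neighbour FNTB.

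MGA, the largest protein of the network, which pairs with MAX and belongs to a Polycomb complex with E2F6, had the strongest BMAL1 peaks of the 10 genes. They fell into 1 region in the first 1.3 kb of the gene (chr15:41621170-41622478), with the main peak centred 800 to 920 bp inside the start at 41621224. In U2OS-CHRONO this peak had the ranks 225, 83, 158, 131, 95 and 180 at 0, 4, 8, 12, 16 and 20 h, or 4.01%, 1.01%, 6.50%, 3.34%, 1.01% and 2.62% of the lists. In U2OS it had the ranks 558, 356, 674, 118 and 443 at 0, 4, 12, 16 and 20 h, or 16.4%, 6.73%, 37.3%, 4.22% and 7.37%, and it was not listed at 8 h. The U2OS-CHRONO peak stood higher at 6 of 6 times, and the ranges overlap, since 4.22% in U2OS at 16 h lies inside the U2OS-CHRONO range. The mean percentile was 96.9 in U2OS-CHRONO and 71.4 in U2OS, a difference of 25.6 ± 35.2 points (SD, n = 6 times; exact paired permutation p = 0.03125, adjusted p = 0.444). Without the 8 h pair the difference was 12.0 points, so that pair alone supplied more of it than the others together. With equal list sizes the order held at 6 of 6 times, with 6.62%, 1.57%, 46.9%, 7.25%, 3.40% and 2.99% in U2OS-CHRONO against 16.4%, 6.73%, no peak, 37.3%, 4.22% and 7.37% in U2OS (percentile difference 17.3 points, exact paired p = 0.03125, adjusted p = 0.753 over 6594 genes). In U2OS an additional, weaker peak lay nearer to the start at 0 h (57.9%) and at 4 h (26.2%). U2OS-CHRONO had no separate peak there, but its wide peak at 4 h (chr15:41621630-41622478) overlapped the additional U2OS peak of 4 h. The Myc peak chr15:41621856-41622204 coincided with the BMAL1 site and was the strongest of the 4 Myc peaks at these genes, with rank 51 of 2487 (2.05%). It overlapped the BMAL1 peaks of all 6 U2OS-CHRONO times and 5 U2OS times.

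**Figure D3:**
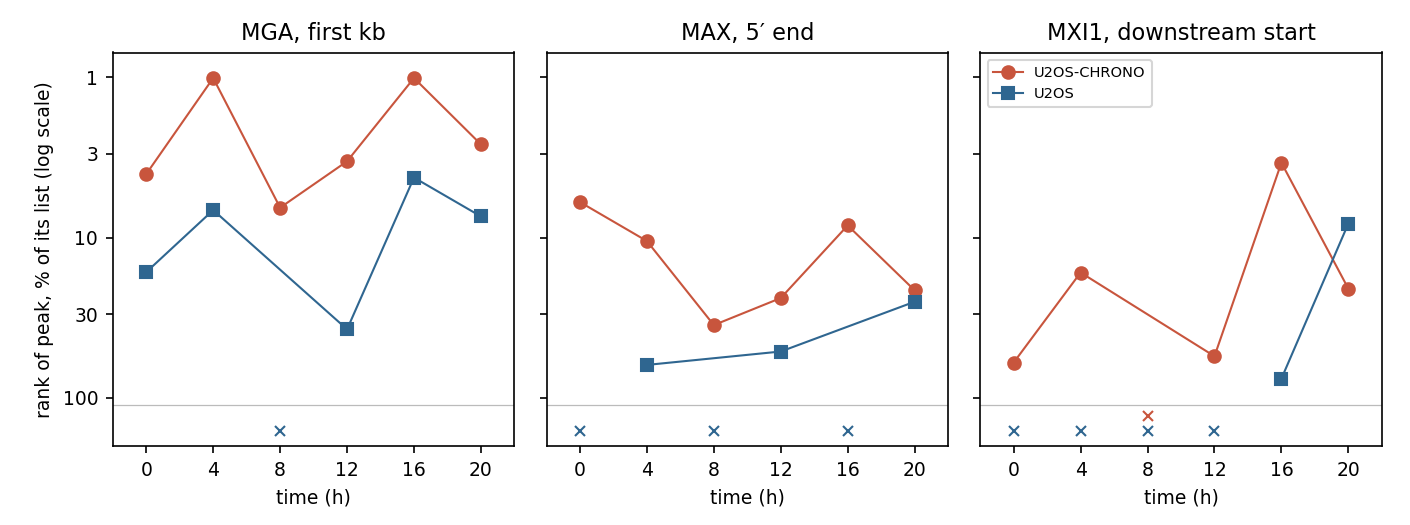
Rank of the best BMAL1 peak, in percent of its list on an inverted log axis, against time in h for the regions at the start of MGA, the 5' end of MAX and the most downstream annotated start of MXI1, in U2OS-CHRONO (circles) and U2OS (squares). Crosses below the grey line mark times without a peak; the U2OS-CHRONO circles of MGA and MAX lie above the U2OS squares at every shared time, while at MXI1 the order turns at 20 h, with 20.8% in U2OS-CHRONO and 8.17% in U2OS.

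No gene of the 8307 with a BMAL1 peak passed the adjusted threshold of 0.05, by rank percentile (0% called) or by presence of a peak, in the paired test or with the pairing dropped. With 6 pairs no adjusted p can fall below that threshold unless most genes share the smallest value. Unadjusted, 566 genes had a higher percentile in U2OS-CHRONO with a p under 0.05, which is 6.81% of those tested, and 19 had a lower one; MAX and MGA were among the 566. By presence, 34 genes had an unadjusted p under 0.05, none of them one of the 10. Counted by times, 6 of the 8 bound network genes had a peak at more U2OS-CHRONO times, 1 at more U2OS times and 1 at equal numbers, with a median of 1.5 additional U2OS-CHRONO times. Of all 8307 genes, 69.1% had more U2OS-CHRONO times and 17.8% more U2OS times, with a median of 1. The balance between the lines at the network genes was thus near that of bound genes in general.

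MXD1, MXD3, MXD4 and MXI1 encode the MAX partners of the MXD family, which compete with MYC for MAX. Of these, MXD1 and MXD4 had their only BMAL1 region at the promoter, and the number of times with a peak differed in opposite directions there. At MXD1 the region chr2:69914532-69915130 was listed in U2OS-CHRONO at 0, 12, 16 and 20 h, at 37.3%, 57.6%, 37.1% and 38.5% of the lists, and in U2OS at 4 h alone, at 58.2%. At MXD4 the region chr4:2262129-2262564 was listed at no U2OS-CHRONO time and in U2OS at 0, 4 and 20 h, at 38.9%, 39.6% and 21.5%. MXD4 was the only one of the 10 genes with peaks in U2OS and none in U2OS-CHRONO. Of all genes, 41.5% (8307) had a BMAL1 peak in at least 1 library and 36.1% (7243) at some U2OS-CHRONO time. The genes that make up this gap had peaks in U2OS alone, as MXD4 did. Neither difference passed the test over 6 times (percentile difference 31.3 points at MXD1, exact paired p = 0.125, and -33.3 points at MXD4, exact paired p = 0.25). When list sizes were made equal, MXD1 was listed at 2 U2OS-CHRONO times and 1 U2OS time, with a percentile difference of 8.76 points (exact paired p = 0.75). MXD4, with no U2OS-CHRONO peak, could not change in that setting, since the U2OS lists were not shortened. With a score of at least 100, MXD4 was listed at 0 U2OS-CHRONO times and 1 U2OS time, with a percentile difference of -4.35 points. MXD1 was then listed at 0 times in both lines.

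The promoter sequence was read from the RefSeq promoter table of GRCh38.p14 for these genes and for MNT and MLX, which have BMAL1 peaks there. A MAX promoter and the promoter at the first start of MGA also overlap BMAL1 peaks. Both lack CACGTG, and their sequences are not printed. The 250 bases before the start are given 5' to 3' on the gene's strand, and capitals mark CACGTG, the E-box core that both BMAL1 with CLOCK and MYC with MAX bind. MXD4 (chr4:2262110-2262359, minus strand), MNT (chr17:2401061-2401310, minus strand) and MLX (chr17:42566850-42567099, plus strand) hold it, and MXD1 (chr2:69914859-69915108, plus strand) does not.
MXD4: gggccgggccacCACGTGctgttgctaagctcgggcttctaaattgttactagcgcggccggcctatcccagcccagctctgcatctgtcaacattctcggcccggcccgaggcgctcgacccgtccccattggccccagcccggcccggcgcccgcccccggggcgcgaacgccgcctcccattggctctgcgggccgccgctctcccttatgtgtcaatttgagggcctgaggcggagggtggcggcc
MNT: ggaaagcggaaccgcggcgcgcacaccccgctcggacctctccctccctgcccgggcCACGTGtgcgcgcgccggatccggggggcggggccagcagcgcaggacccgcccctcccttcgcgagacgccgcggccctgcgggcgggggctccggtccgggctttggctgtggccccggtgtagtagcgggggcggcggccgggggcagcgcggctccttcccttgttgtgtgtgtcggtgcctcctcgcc
MLX: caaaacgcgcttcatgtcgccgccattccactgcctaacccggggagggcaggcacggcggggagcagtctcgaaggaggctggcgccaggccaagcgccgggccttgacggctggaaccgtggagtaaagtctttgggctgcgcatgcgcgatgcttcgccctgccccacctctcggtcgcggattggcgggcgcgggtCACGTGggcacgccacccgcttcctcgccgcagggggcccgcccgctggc
MXD1: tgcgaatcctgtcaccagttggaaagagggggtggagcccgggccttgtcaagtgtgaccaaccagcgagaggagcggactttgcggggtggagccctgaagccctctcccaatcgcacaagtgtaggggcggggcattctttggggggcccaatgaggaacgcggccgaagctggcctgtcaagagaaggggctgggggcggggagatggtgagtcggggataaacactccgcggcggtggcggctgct
The core begins 238 bases before the start in MXD4, 193 before it in MNT and 50 before it in MLX. It lay under the peaks of all 3 U2OS times at MXD4, under those of 2 U2OS-CHRONO and 2 U2OS times at MNT, and under those of all 4 U2OS-CHRONO times at MLX. The table held 14 promoters for 9 of the 10 genes, with no entry for MYC. CACGTG, which reads the same on both strands, was in 3 of the 6 that overlapped a BMAL1 peak, in a window of 250 bases before to 50 after the start, and in 0 of the 8 that overlapped none. Of all 22199 promoters of protein-coding genes in the table, 8.34% hold it; the share was 24.0% of those with a BMAL1 peak, 5.54% of those without and 25.1% of those with a Myc peak. The MAX promoter with peaks in 9 BMAL1 libraries and in the Myc library has no CACGTG in this window. Most of the MAX region lies upstream of the window, and that sequence was not searched. The window at the first start of MGA has no CACGTG either, and the main MGA peak lies downstream of it.

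MXD3 had its main region inside the first kb of the gene (chr5:177311827-177312686, start at 177312752 on the minus strand), where the neighbour PRELID1 also lies within 5 kb. In U2OS-CHRONO its peaks stood at 62.6%, 17.2%, 62.2%, 25.7% and 49.9% of the lists at 0, 4, 12, 16 and 20 h, and in U2OS at 16.5%, 30.8% and 25.6% at 0, 4 and 20 h. The ranges overlap, and the line that stood higher changed with the time. The mean percentile of the gene's best peak was 51.5 in U2OS-CHRONO and 37.8 in U2OS (difference 13.6 ± 37.4 points, exact paired p = 0.5). The region was listed at 3 times in each line with equal list sizes, and the percentile difference was then -9.49 points. The other 2 MXD3 regions lie beyond the gene's end, within 5 kb of NSD1, RAB24 and PRELID1; one was listed at 0 and 4 h in both lines and the other in U2OS-CHRONO at 0 h alone.

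MXI1, a further gene of this family, has 3 annotated starts and held 5 BMAL1 regions with different patterns. The region just inside the second start (chr10:110210702-110211508) had peaks at 4 and 16 h in U2OS-CHRONO and at 0, 4, 16 and 20 h in U2OS. The region inside the most downstream start (chr10:110226348-110227518) had peaks in U2OS-CHRONO at 0, 4, 12, 16 and 20 h, with its best peak at 60.1%, 16.5%, 54.9%, 3.41% and 20.8% of the lists, and in U2OS at 16 and 20 h, at 75.8% and 8.17%. A region 47.7 kb downstream of that start, in the gene body (chr10:110273423-110273962), was listed at no U2OS-CHRONO time and in U2OS at 0, 4, 16 and 20 h, at 41.3%, 44.1%, 36.4% and 13.0%. The remaining regions had peaks at 0 and 16 h in U2OS-CHRONO alone (chr10:110221798-110222213) and at 20 h in U2OS alone (chr10:110227628-110227902). The same gene thus held sites that were listed more often in each line, and its window as a whole had peaks at 5 U2OS-CHRONO and 4 U2OS times. In lists of equal size the region at the most downstream start had 4 against 2 times. The count of 0 against 4 at the distal region could not change there, since only U2OS-CHRONO lists were shortened. With a score of at least 100 the distal region was listed at 0 U2OS-CHRONO times and 1 U2OS time. The mean percentile of the gene's best peak was 57.4 in U2OS-CHRONO and 47.9 in U2OS (difference 9.52 ± 24.3 points, exact paired p = 0.375), and with equal list sizes the difference was -7.90 points.

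MNT, which is expressed more widely than the MXD genes and opposes MYC in growing cells, held 6 BMAL1 regions, the most of the 10 genes. A region 8.4 kb inside the gene (chr17:2392388-2392981) was listed in U2OS-CHRONO at 0, 4, 16 and 20 h, at 50.9%, 18.7%, 30.7% and 55.4%, and in U2OS at 0, 4, 12, 16 and 20 h, at 60.1%, 13.7%, 65.0%, 38.5% and 11.2%. The region across the start (chr17:2400889-2401358), which covers the CACGTG shown above, was listed at 16 and 20 h in U2OS-CHRONO and at 4, 12, 16 and 20 h in U2OS. A further region, just upstream (chr17:2401423-2401952), was listed at 0, 4, 16 and 20 h in both lines, and the Myc peak of the gene lay there, with rank 726 of 2487 (29.2%). These regions were shared between the lines, whereas a region 2.1 kb inside the gene (chr17:2398780-2399236) was listed at 4, 12, 16 and 20 h in U2OS-CHRONO, at 42.7%, 50.9%, 40.1% and 26.6%, and at no U2OS time. Its count was 2 against 0 with equal list sizes. The other 2 regions held a single peak each, in U2OS-CHRONO at 4 h. Over the gene, both lines had a peak at 5 of 6 times, and 8 h was without one in both. The mean percentile was 54.9 in U2OS-CHRONO and 53.2 in U2OS (difference 1.69 ± 10.8 points, exact paired p = 0.6875). With equal list sizes the best peak of MNT stood lower in U2OS-CHRONO at 5 of 5 times with a peak. The mean difference was then -25.2 points over the 6 times (exact paired p = 0.0625, adjusted p = 0.753), so its sign differed between these settings.

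**Figure D4:**
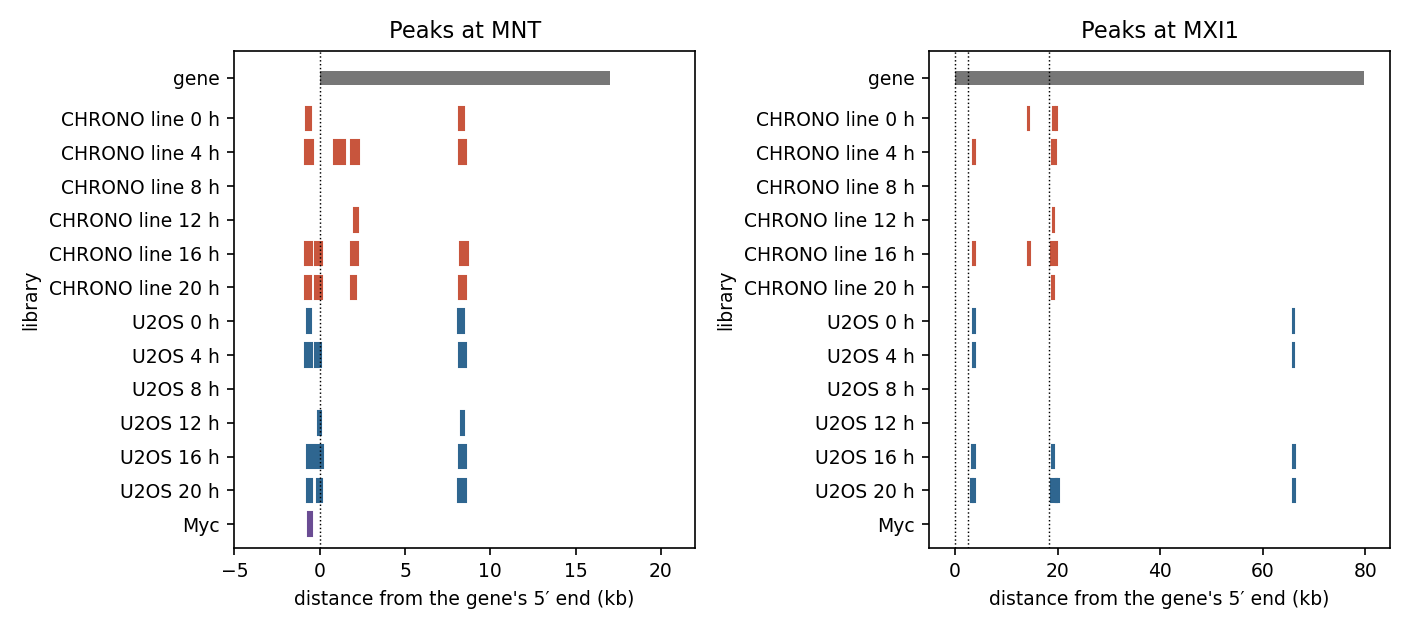
Peaks at MNT (left) and MXI1 (right) by library, drawn to scale against the distance in kb from the gene's 5' end, with the gene in grey and annotated starts as dotted lines. U2OS-CHRONO peaks are in red, U2OS peaks in blue and the Myc peak in purple; at MNT the site 2.1 kb inside the gene has 4 U2OS-CHRONO peaks and 0 U2OS peaks, and at MXI1 the most distal site has 0 and 4.

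MLX, the partner of MLXIP, was the only network gene with 4 or more additional times in U2OS-CHRONO, a difference seen at 3.07% of all genes. None of the 10 genes had 4 or more additional U2OS times, against 0.0948% of all. The MLX region (chr17:42566868-42567295) lies across the gene's start, with COASY within 5 kb, and was listed in U2OS-CHRONO at 0, 4, 16 and 20 h and at no U2OS time. All 4 peaks were weak, with ranks 4391, 5169, 7431 and 4331, or 78.2%, 62.7%, 79.1% and 63.0% of the lists (percentile difference 19.5 points, exact paired p = 0.125). In lists of equal size 2 of the 4 remained and the percentile difference was 5.04 points (exact paired p = 0.5). The difference of 4 times thus did not hold in that setting. The Myc peak in the MLX window (chr17:42561960-42562203, 33.1%) lies 5.0 kb upstream of the start, over the end of COASY that faces away from MLX, and overlapped no BMAL1 peak.

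Joined over the 12 libraries, the BMAL1 peaks of the 10 genes formed 22 regions. Of these, 10 had peaks in both lines (27.0% of all 20968 BMAL1 regions did), 9 in U2OS-CHRONO alone (49.5% of all) and 3 in U2OS alone (23.5%). With equal list sizes 16 of the 22 kept a peak, of which 10 had peaks in both lines, 3 in U2OS-CHRONO alone and 3 in U2OS alone. Only U2OS-CHRONO lists were shortened, so a region listed in U2OS alone could not be lost in this setting. The split of all BMAL1 regions with equal list sizes is not given, so this change cannot be called particular to the 10 genes. A peak in 1 library alone was found at 7 of the 22, against 56.8% of all regions, and peaks in 9 or more libraries at 3, those of MGA, MAX and the site 8.4 kb inside MNT, against 6.06%. An excess of 4 or more U2OS-CHRONO times was found at 2 regions, those of MLX and 2.1 kb inside MNT, against 5.06% of all. The distal MXI1 region was the only one with 4 or more additional U2OS times, a pattern of 0.291% of all regions. In all, 61 regions had that pattern, against 1061 with the reverse.

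The Myc library had a peak in the windows of 4 of the 10 genes, MAX, MNT, MLX and MGA, against 9.80% of all protein-coding genes. The MLX peak reached only the edge of its window. With the peak's centre inside the window, or with a window of 1 kb, 3 genes had a Myc peak, and MLX had none. The share of all genes is not given for these settings. Of these 4 peaks, 3 overlapped a BMAL1 peak, those at MAX, MNT and MGA, where 55.6% of all 2487 Myc peaks did. The MXD genes and MXI1 had none, nor had MYC. All 4 clock genes kept for scale, NR1D1, DBP, PER1 and CIART, had a Myc peak too.

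Around these genes, 34 further genes of the network were counted, in lists of relatives, chromatin cofactors, corepressors, turnover factors, subunits of the MGA complex and targets of MLX with MLXIP. Of the 34, 18 had a BMAL1 peak at some U2OS-CHRONO time, 14 at some U2OS time and 6 in the Myc library, which reached 9.80% of all genes. By list, BMAL1 peaks in U2OS-CHRONO and in U2OS were found at 7 and 5 of 10 chromatin cofactors, 3 and 3 of 6 corepressors, 3 and 3 of 7 turnover factors and 2 and 2 of 2 targets of MLX with MLXIP, where 36.1% and 26.0% of all genes had one. KAT5, the TIP60 acetyltransferase recruited by MYC, and TXNIP, a well known target of MLXIP with MLX, had BMAL1 peaks at all 6 times in both lines and a Myc peak. TFAP4, an E-box factor induced by MYC, and SIN3A, the scaffold through which MXD proteins and MNT recruit histone deacetylases, had peaks at 4 times in each line and a Myc peak. AURKA, a kinase that stabilises MYC family proteins, was listed at 5 U2OS-CHRONO times and 1 U2OS time, also with a Myc peak, and E2F6, the partner of MGA, at 4 and 0 without one (E2F6 was chosen after its values were seen). GSK3B, a kinase that marks MYC for degradation, had the sixth of the Myc peaks and a BMAL1 peak at 1 U2OS time. AURKA and E2F6 are the 2 of 34 with 4 or more additional U2OS-CHRONO times, against 3.07% of all genes. Among the 6 subunits of the MGA complex other than MGA, 2 had a BMAL1 peak in U2OS-CHRONO and 0 in U2OS, and among 3 relatives MYCN and MYCL had no peak in any list. By the exact paired test on percentiles none of the 34 had an adjusted p below 0.490.

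The genes whose 12 best percentiles were most like those of MGA were LRRC8E and MAP2K7, neighbours on chromosome 19 that shared their best peak in all 11 libraries with one, and CCDC6, at Euclidean distances of 12.0, 12.0 and 12.3 percentile points. For MNT they were DISP2 and KNSTRN, neighbours on chromosome 15 that shared their best peak in all 10 libraries with one, and ATP11A, at 39.8, 39.8 and 40.0 points. Each of these neighbour pairs is a single match. For MAX they were IFNGR2, IRF2BPL and XYLB, at 35.9, 38.4 and 39.8. The profile of MGA thus had closer matches than those of MNT and MAX. Likeness was taken over 12 libraries and includes the times without a peak, which many genes share.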

How the data were processed

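BMAL1 libraries of both lines and the Myc library were used. Peaks came as 1 deposited list per library (13 lists). The submitters' processing notes name HOMER 4.10.3, MACS 1.4.2, bedtools and hg38 but not their roles; aligner, control and depth are not given in the sources used. Each peak carries a score, the authors' own value as deposited, whose meaning no source states (by convention this MACS version writes a scaled negative logarithm of a p-value). Here the score set a peak's rank in its own list and nothing else. The 3 input libraries were not analysed here.

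Gene bodies came from RefSeq (GRCh38.p14); peaks within 5 kb of a gene counted, and peaks that shared at least 1 bp were joined into regions. Exons and introns were not assigned. For each gene the lines were compared over the 6 times by an exact permutation test that flips the sign of each pair (two-sided), on presence of a peak and on the percentile of the best peak, adjusted by Benjamini-Hochberg over 8307 genes. Pairs come from the time labels; the deviations of same-time libraries from their line's mean correlated at -0.00852 to 0.0870, so the test was also run with the pairing dropped. The settings varied were the minimum score (100), list size (equal in both lines), the window (gene body, 1 kb, or the peak's centre inside 5 kb), the pairing, the number of additional times (3), and the times used, leaving out each in turn; region counts under these settings were added after seeing the data. The tests were checked on simulated data.

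All 10 members were named. Of other network genes, those with a peak in 8 or more BMAL1 libraries or a Myc peak could be named, as could the 3 nearest profiles for each of the 3 members with most libraries, leaving out genes that share a peak with the member. Not every gene this rule allows is reported here. Members and lists were chosen with earlier results of these data known. Computations used matplotlib 3.10.9, SciPy 1.17.1 and NumPy 2.4.6 under Python 3.11.15.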

Additional observations from a re-analysis of the deposited data

Results flagged for a closer look

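In U2OS-CHRONO at 8 h, 2 of the 10 genes, MAX and MGA, had a BMAL1 peak, against 6 or 7 at the other 5 times, and this count stood apart from the rest of its group by Dixon's test (its gap to the nearest other value was 0.800 of the whole range). The 8 h list was also the shortest of that line, with 2429 peaks, and 7.96% of all genes had a peak in it; the part of list length in the count was not tested. In all, 6 sets were looked at, and chance marks about 1 set in 20.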

How the results depend on the processing

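Of 340 values recomputed under alternatives, 307 kept their direction and side of the threshold or stayed within the stated spread. Another 27 moved and 6 turned in sign, and the cause was not tested. Some of the 307 could not have changed, so that count overstates how stable the results were. MYC and MLXIP had no peak, and their alternatives only removed peaks, narrowed the window or dropped times, so their differences stayed 0. Equal list sizes shortened the U2OS-CHRONO lists alone, so the U2OS mean and the differences at MXD4 had to stay as they were. With 1 time left out, no exact paired p could fall below 0.0625, so no gene could pass the adjusted threshold. With a score of at least 100 the mean number of genes per U2OS-CHRONO library was 3.17, 1 gene had a Myc peak, 11 regions kept a peak (6 in both lines, 1 in U2OS-CHRONO alone, 4 in U2OS alone), 1 region had 4 or more additional U2OS-CHRONO times and 0 had 4 or more additional U2OS times; the difference in times at MXD3 was -1 and the percentile difference at MNT -6.59. With the gene body alone, 2 genes had a Myc peak. With equal list sizes, 3 regions were listed in U2OS-CHRONO alone, 0 genes and 0 regions had 4 or more additional U2OS-CHRONO times, and the percentile differences were -9.49 at MXD3, -7.90 at MXI1 and -25.2 at MNT. With a difference of 3 times, 3 genes and 5 regions had more U2OS-CHRONO times, and 1 gene and 2 regions more U2OS times. With 1 time left out in turn, 0 to 1 genes and 0 to 2 regions had 4 or more additional U2OS-CHRONO times, 0 to 1 regions 4 or more additional U2OS times, and 0 to 2 genes a peak in all remaining libraries (2, MGA and MNT, without 8 h); the MNT difference was -0.79 without 12 h. MLX lost its call without 0, 4, 16 or 20 h, since it then had 3 such times, and MXD1 had 4 without 4 h. Without the pairing, MAX and MGA had an exact p of 0.00433 and an adjusted p of 0.136, and 0 of 8307 genes passed. Depth is unknown, so a site that is not listed may be bound below the calling threshold, and a longer list cannot be told apart from more binding.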
